A study of Mus musculus with 2 samples.

Results

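The integrin and laminin subunit genes were chosen by symbol. A gene was included when its symbol was Itga or Itgb followed by digits or letters, without the Itgb1bp and Itgbl genes, or Lama, Lamb or Lamc followed by a digit. The rule found 39 of the 32285 genes counted in both libraries, namely 18 integrin alpha genes, 9 integrin beta genes, 11 laminin chain genes and Itgb3bp. Itgb3bp matches the letters of the rule but encodes a protein that binds an integrin subunit, so 38 of the 39 are subunit genes. Of the 39, 26 reached 20 CPM (a gene's transcript counts per 1000000 transcripts counted in a group of cells) in some cell type, and 13 did not.

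The study transplanted a single cell suspension carrying the red reporter tdTomato into C57Bl mice and profiled the chimeric lungs after 6 months with 10x Genomics droplet RNA sequencing. Cells from the lungs of 3 chimeric mice were pooled and sorted into CD45-negative cells with tdTomato, which the labels call donor lung cells, and CD45-negative cells without it, labelled C57BL recipient cells. Each sort gave 1 library of pooled animals, so neither group had a replicate, and every interval below is a 95% interval that covers counting error only. The strain, age and sex of the donors and the conditioning of the hosts are not given in the sources used here.

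Transcripts were counted by unique molecular identifiers (UMIs), 37997269 over 6319 barcodes in the donor and 26201315 over 3784 barcodes in the recipient library. After filtering, 4571 and 3192 cells were used, with a median of 6090 and 6382.5 UMIs. The libraries shared 816 barcodes, of which 728 had a donor copy at least 5-fold smaller than the recipient copy and 48 the reverse. The smaller copy was left out in those cases and both copies were left out in the other 40. Cell types were gated by UMIs of fixed markers, none of which is an integrin or laminin gene, and 13 gates (4 donor, 9 recipient) held at least 50 cells. These were general capillary cells (1998 donor and 286 recipient cells), aerocytes (1477 and 601), alveolar type 1 cells (55 and 181), pericytes (53 and 531), and recipient venous (68) and lymphatic (65) endothelial cells, alveolar fibroblasts (604), adventitial fibroblasts (126) and myofibroblasts (125). Markers held out of the gating were highest in the gate of their own type in 13 of 13 gates. The gates left 19.4% of donor and 17.1% of recipient cells unassigned.

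Integrins are cell surface receptors made of an alpha and a beta subunit that link the cytoskeleton to the extracellular matrix or to other cells, and the pair decides which ligands are bound. Laminins are trimers of an alpha, a beta and a gamma chain that polymerize into the sheet of the basement membrane, to which integrins attach. In the alveolus, capillary endothelium and alveolar type 1 cells, the flat cells that line the airspace, lie on a fused basement membrane, across which gas diffuses.

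Promoter windows of 3 genes are shown, Lamb3 and Itgb6 because their transcripts were highest in alveolar type 1 cells and Itga3 because alveolar type 1 cells and aerocytes shared it. Windows were chosen after the motif matches had been seen, and each of these genes has another listed start whose window is not printed. In each gene that unprinted window lacks the motif marked here. The printed Lamb3 and Itgb6 windows lie inside the annotated bounds of their genes, and the unprinted Itgb6 window lies at the gene's 5′ end. RefSeq windows (GRCm38.p6) were listed for 25 of the 39 genes, and the 250 bases before a start site are printed 5′ to 3′ on the gene's strand. Lamb3 lies at chr1:193301993-193302242 (plus strand), and the capitals mark a TEAD motif (GGAATG read on the other strand). Itgb6 lies at chr2:60673694-60673943 (minus strand), and the capitals mark a Grainyhead motif (AACNNGTT). Itga3 lies at chr11:95076715-95076964 (minus strand), and the capitals mark an ETS motif (CCGGAAG).

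Lamb3: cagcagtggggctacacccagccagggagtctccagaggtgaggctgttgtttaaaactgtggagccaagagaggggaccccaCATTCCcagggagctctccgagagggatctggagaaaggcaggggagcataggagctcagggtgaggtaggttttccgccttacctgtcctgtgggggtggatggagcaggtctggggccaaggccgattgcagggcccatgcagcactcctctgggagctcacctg

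Itgb6: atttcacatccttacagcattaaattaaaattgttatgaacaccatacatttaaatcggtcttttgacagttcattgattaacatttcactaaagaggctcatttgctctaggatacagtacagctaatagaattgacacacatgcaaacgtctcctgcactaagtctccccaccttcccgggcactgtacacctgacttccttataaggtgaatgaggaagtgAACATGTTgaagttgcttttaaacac

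Itga3: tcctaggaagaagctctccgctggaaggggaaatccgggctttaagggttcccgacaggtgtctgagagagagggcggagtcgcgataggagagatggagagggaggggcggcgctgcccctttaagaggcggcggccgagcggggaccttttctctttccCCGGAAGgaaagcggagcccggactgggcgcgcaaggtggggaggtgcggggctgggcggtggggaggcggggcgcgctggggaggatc

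Searched on both strands over 32851 windows of this length, GGAATG was found in 12.6%, AACNNGTT in 3.64%, CCGGAAG in 6.91%, an AP-1 motif (TGANTCA) in 6.75% and an NKX2-1 motif (CACTCAA) in 2.57%. A KLF motif (CCACCC) was in 28.1% and an E-box (CANNTG) in 66.2%, and neither is capitalized. Matches of different motifs may overlap, which was not counted. Each match describes letters in a window and not a bound site.

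**Figure D1:**
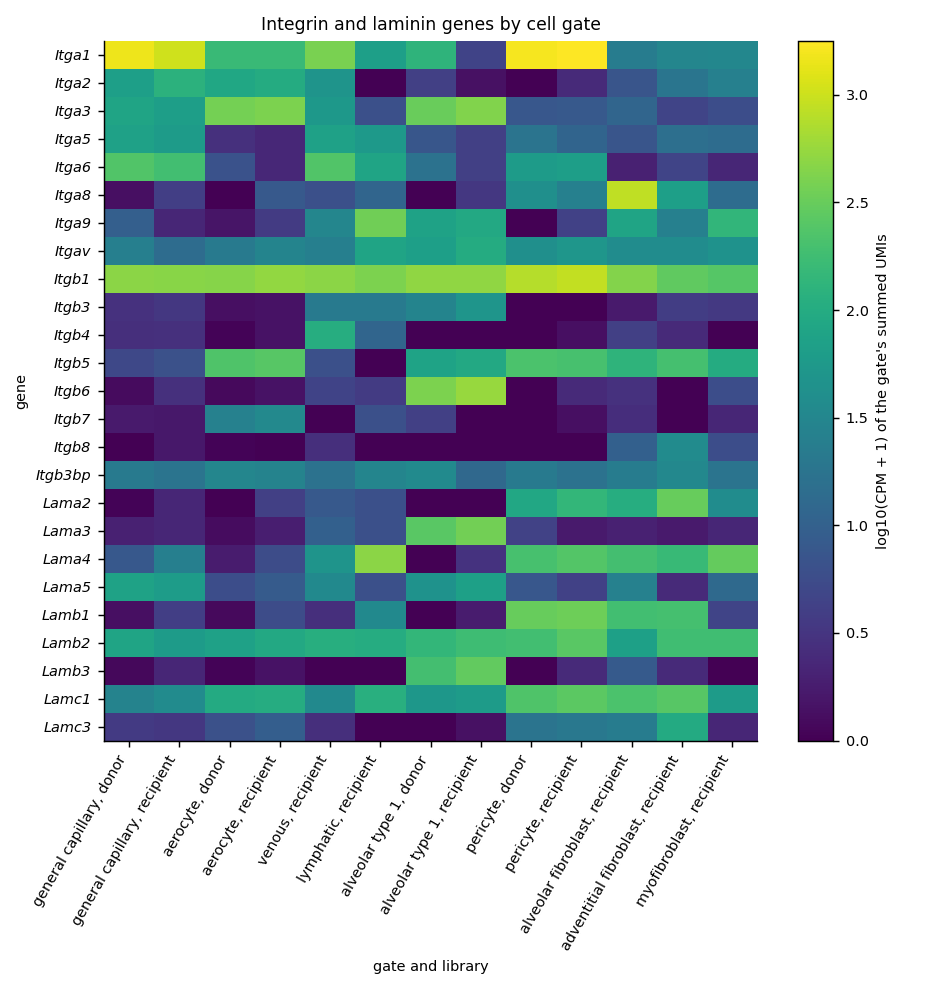
Levels of 25 genes that reached 20 CPM in some gate, as log10(CPM + 1) of the summed UMIs (colour), with genes in rows and the 13 gates by library in columns. Itgb1 is present in every column, whereas Itga8, Itgb6, Lama3 and Lamb3 are bright in 1 cell type each.

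Among the collagen-binding alpha subunits, Itga1 marked pericytes and general capillary cells, and Itga2 was mainly a capillary transcript. Itga1 (chromosome 13, 114953096 to 115101964) stood at 1628 CPM (95% interval 1486 to 1780) in donor and 1781 (1732 to 1832) in recipient pericytes, and at 1452 (1430 to 1475) and 1030 (981 to 1080) in general capillary cells. Venous cells followed at 390.3 CPM, then aerocytes at 156.5 and 160.6. Fibroblast and myofibroblast gates held 22.2 to 31.4 CPM of Itga1, whose 3 intervals overlap, and recipient alveolar type 1 cells held 3.55. The donor alveolar type 1 gate stood apart with 127.4 CPM, but 72.5% of those UMIs came from 3 cells. Itga2, whose gene lies 20996 bases from Itga1, had 67.7 and 123.1 CPM in donor and recipient general capillary cells, 86.4 and 98.1 in aerocytes, 47.5 in venous cells and 25.4 in myofibroblasts. Itga10 and Itga11, the other collagen receptors, stayed at or below 3.65 and 10.1 CPM. Itga1 shares exon sequence on its strand with the gene model Gm49395, so UMIs of the shared stretch could be split or dropped.

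The laminin-binding alpha subunits Itga3 and Itga6 were distributed in opposite ways over the alveolar wall. Itga3 (chromosome 11, 95044474 to 95076801) was highest in alveolar type 1 cells, with 318.4 CPM (259 to 387) in the donor and 436.8 (412 to 463) in the recipient library, and in aerocytes, with 368.6 (358 to 379) and 409.4 (391 to 429). General capillary cells held 77.3 and 65.2 CPM of it, venous cells 52.8, and the other 6 gates 3.65 to 10.4. Itga6 (chromosome 2, 71745616 to 71858416) was highest in venous cells at 235.6 CPM (197 to 279) and in general capillary cells at 229.5 (221 to 238) and 185.9 (166 to 208), followed by lymphatic cells at 78.9 and pericytes at 60.6 and 64.9. Aerocytes held 5.56 and 1.33 CPM, and the level in both libraries came to 0 when 5% of each gate's UMIs was subtracted as free RNA of the whole library. Itgb4, the partner of Itga6 in firm attachments of epithelium, reached 103.7 CPM (79.0 to 134) in venous cells and was at 0 in both alveolar type 1 gates (59 UMIs against none, where 3 UMIs would be 9.55 and 1.18 CPM). Both Itga6 and Itgb4 were detected in 24 of 68 venous cells, or 35.3% (exact binomial interval 24.1 to 47.8), against 1 of 286 recipient general capillary cells, or 0.35% (0.00885 to 1.93). Median depths were 8104.5 and 5381 UMIs. In recipient aerocytes, at a median of 7467 UMIs, 0 of 601 cells held both. Itga7 stayed at or below 5.52 CPM.

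The subunits that bind the RGD motif of fibronectin and of latent TGF-beta were spread over different compartments. Itgb6, which with Itgav activates latent TGF-beta in epithelium, was at 401.2 CPM (334 to 478) in donor and 557.9 (529 to 588) in recipient alveolar type 1 cells, and at 0 to 4.84 in the other 11 gates. Itgav was broad, from 13.3 CPM in recipient general capillary cells to 97.8 in recipient alveolar type 1 cells. Itgb3, another partner of Itgav, was at 28.7 and 48.1 CPM in alveolar type 1 cells, at 21.1 and 21.0 in venous and lymphatic cells, and at or below 2.92 elsewhere. Itgb5 (chromosome 16, 33829665 to 33949338) had 223.1 CPM (215 to 231) and 254.1 (240 to 269) in aerocytes and 215.3 and 199.3 in pericytes, whose donor interval (166 to 275) spans both aerocyte values. General capillary cells held 4.10 and 5.43 CPM of Itgb5, and no UMI was found in lymphatic cells, where 3 UMIs would be 7.89 CPM. Itga5, the fibronectin receptor subunit, was endothelial without the aerocytes, at 70.9 and 60.4 CPM in general capillary, 72.1 in venous and 55.2 in lymphatic cells against 1.80 and 1.33 in aerocytes. Itgb8, which also activates latent TGF-beta, peaked at 35.8 CPM (26.5 to 47.3) in adventitial fibroblasts.

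Itga8, the receptor subunit for nephronectin (Npnt), was the alveolar fibroblast member. It stood at 871.5 CPM (843 to 900) there, with 96.9% of 604 cells holding a UMI, against 67.9 (54.8 to 83.2) in adventitial fibroblasts, 40.4 and 25.2 in donor and recipient pericytes and 13.3 in myofibroblasts. Thinned to 2000 UMIs a cell, 82.2% of alveolar fibroblasts and 0.592% of recipient alveolar type 1 cells held one. Npnt itself was at 2391 CPM in alveolar fibroblasts, 763.6 and 777.9 in pericytes, 477.6 and 562.6 in alveolar type 1 cells, 70.8 in adventitial fibroblasts and 14.5 in myofibroblasts, highest in the gate where Itga8 was highest. Itga9, a receptor subunit with a known part in lymphatic valves, was highest in lymphatic cells at 355.0 CPM (298 to 420), then in myofibroblasts at 137.8 (114 to 166), recipient alveolar type 1 cells at 91.1 and alveolar fibroblasts at 77.8, whose intervals overlap (79.7 to 104 and 69.6 to 86.8). Itgb7, known from lymphocytes, was found at 25.7 CPM (23.1 to 28.6) and 33.0 (27.9 to 38.8) in aerocytes, and at 5.26 or less in the other 11 gates. Its partner Itga4 was at 2.33 and 3.54 CPM in aerocytes and highest in recipient pericytes at 19.8, and its other partner Itgae was at or below 3.36.

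Itgb1, the beta subunit shared by most of these alpha subunits, was present in all 13 gates, from 247.8 CPM in myofibroblasts to 890.0 (855 to 926) in recipient pericytes. The leukocyte and platelet subunits were near the limit of detection in the 13 gates of these CD45-negative sorts. Itga2b was at most 7.30 CPM there, Itgal 3.63, Itgb2 2.63 and Itgax 0.730, and Itgam, Itgad and Itgb2l had no UMI. Platelet or leukocyte gates under 50 cells held more Itga2b, Itgal, Itgb2 and Itgam. In 11 donor platelet-gate cells Itga2b was at 3724 CPM. Itgb3bp ranged from 11.4 CPM in recipient to 35.0 in donor alveolar type 1 cells.

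**Figure D2:**
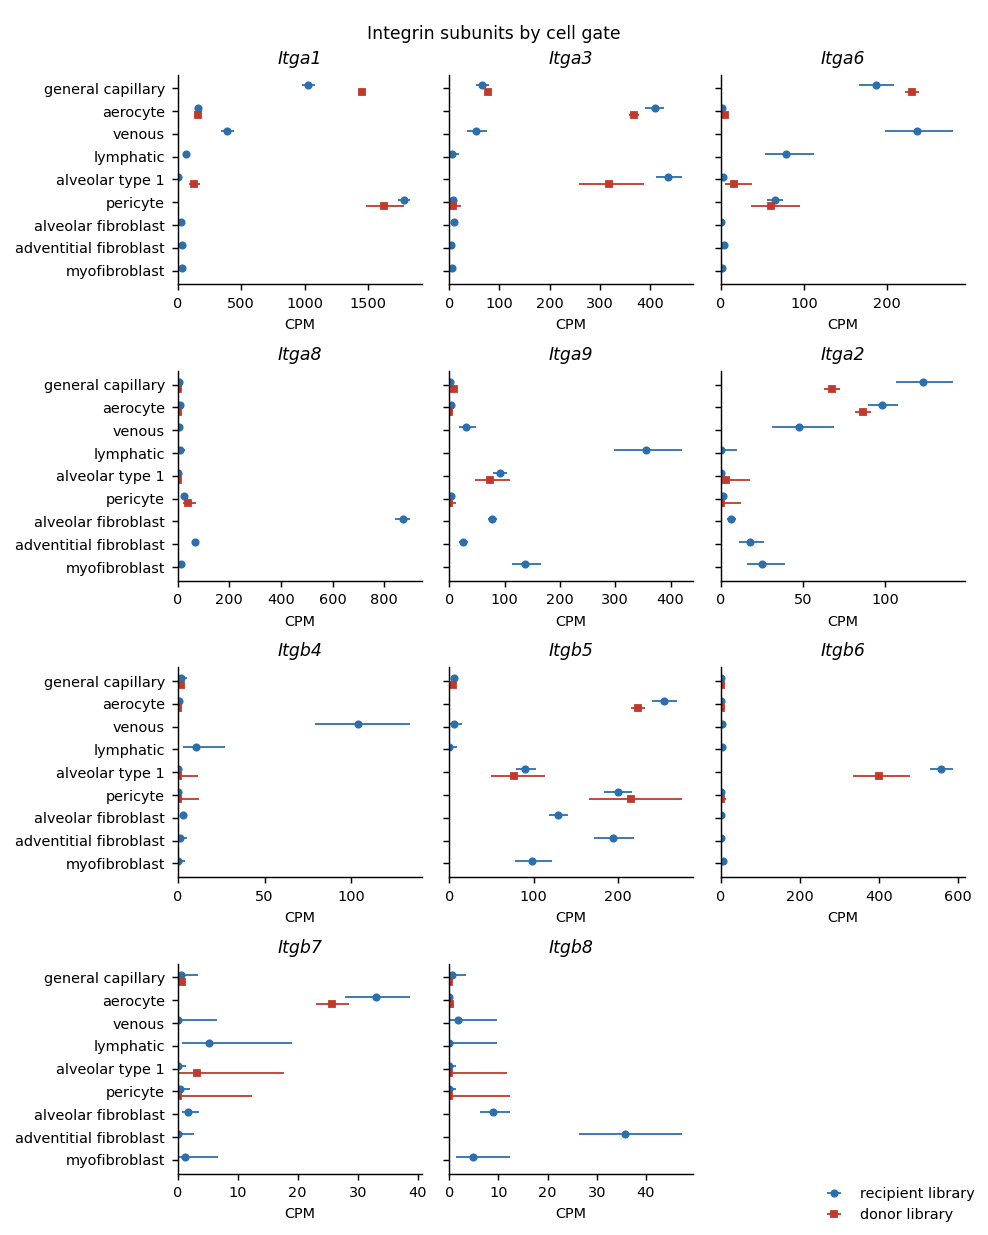
CPM of 11 integrin subunits (horizontal axes, linear, each from 0) by gate, with donor (squares) and recipient (circles) libraries and bars for 95% Poisson intervals. Itga3 and Itgb5 are high in aerocytes where Itga6 is near 0, and Itga8 and Itgb6 are high in 1 cell type each.

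Of the laminin chains, Lama3 and Lamb3, which belong to the laminin of epithelial anchoring sites, were found together in alveolar type 1 cells. Lama3 had 257.9 CPM (205 to 321) in donor and 356.8 (334 to 381) in recipient cells, and Lamb3 (chromosome 1, 193207699 to 193343878) had 187.9 (143 to 242) and 294.1 (273 to 316). In the other gates Lama3 was at 0.301 to 8.79 CPM and Lamb3 at 0 to 7.25. At least 1 UMI of each was found in 143 of 181 recipient alveolar type 1 cells, or 79.0% (72.3 to 84.7), and in 16 of 55 donor cells, or 29.1% (17.6 to 42.9), with median depths of 14304 and 2317 UMIs. UMIs of both were seen in 0 of 1477 donor and 0 of 601 recipient aerocytes (median depths of 8785 and 7467 UMIs), where the exact upper limits of 0.249% and 0.612% concern cells with both UMIs detected, not cells expressing the genes.

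The chains of mesenchymal and vascular basement membranes differed in which gate they led. Lama2, the chain of muscle and mesenchymal laminin, was highest in adventitial fibroblasts at 313.9 CPM (285 to 345), followed by recipient pericytes at 139.1, alveolar fibroblasts at 105.2 and donor pericytes at 87.5, and was at or below 7.03 in endothelial gates. Lama4 was highest in lymphatic cells at 483.8 CPM (416 to 559), then in myofibroblasts at 298.6 and pericytes at 201.8 and 237.6, and it was at 0.752 and 4.65 in aerocytes. Lama5, the chain of mature epithelial and endothelial basement membrane, was at 72.7 (67.8 to 77.8) and 61.0 (49.7 to 74.1) CPM in general capillary cells and at 44.6 and 70.2 in alveolar type 1 cells, which overlap, but at 4.81 and 7.53 in aerocytes. Lama1, the embryonic chain, reached 19.3 CPM in venous cells from 11 UMIs and 1.05 CPM elsewhere at most. Lamb1 separated the mesenchymal gates, with 309.5 and 337.8 CPM in pericytes, 192.7 in adventitial and 184.4 in alveolar fibroblasts and 3.63 in myofibroblasts. Lamb2 was broad, from 59.2 CPM in recipient general capillary cells to 257.7 in recipient pericytes. Lamc1, the common gamma chain, ran from 27.7 CPM in donor general capillary cells to 267.5 in recipient pericytes, and Lamc3 peaked in adventitial fibroblasts at 96.4 (80.6 to 114).

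**Figure D3:**
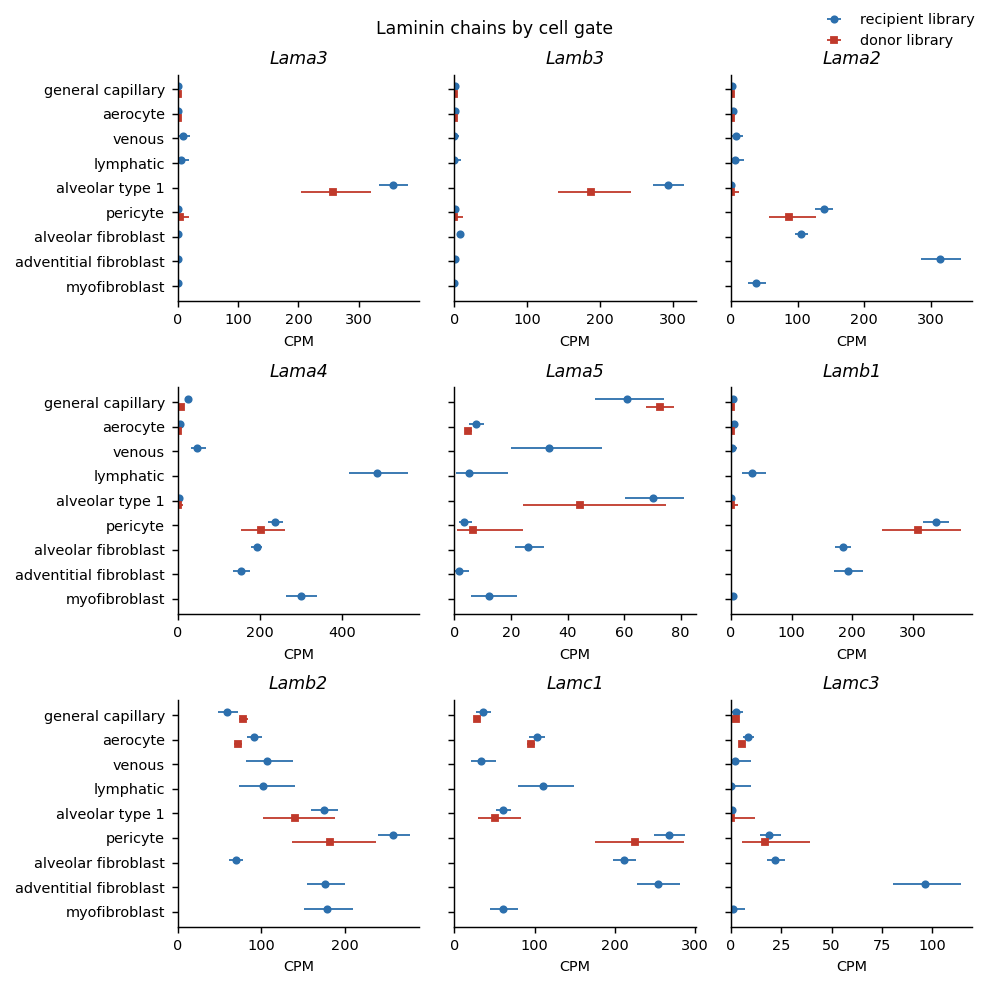
CPM of 9 laminin chains (horizontal axes, linear, each from 0) by gate, with donor (squares) and recipient (circles) libraries and bars for 95% Poisson intervals. Lama3 and Lamb3 exceed 100 CPM in alveolar type 1 cells alone among the 13 gates, and Lamb1 is high in pericytes and fibroblasts but not in myofibroblasts.

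The capillary comparison asked how both intermingled endothelial types of the alveolus differ in their matrix receptors. Aerocytes carry the thin extensions across which gas is exchanged, and general capillary cells include the cells that renew the network. A gene was called apart when its CPM differed at least 2-fold, among genes with at least 50 UMIs in both sums together. Of the 39 genes, 16 passed that minimum in the donor library and 11 of them were apart, where 23.0% of all genes tested were (7.59% higher and 15.4% lower in aerocytes). In the recipient library 14 passed and 10 were apart, against 20% of all genes (8.42% higher and 11.5% lower). The 9 apart in both, which are 9 of the 11 and 9 of the 10, had the same direction in each. The median log2 ratio over the tested integrin and laminin genes was −0.10 in the donor and 0.39 in the recipient library, beside −0.089 and −0.00033 over all genes.

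Aerocytes were higher in Itgb5, by 54.4-fold in the donor (log2 5.77, 5.35 to 6.21) and 46.8-fold in the recipient library (log2 5.55, 4.62 to 6.68). They were also higher in Itgb7 (log2 5.20 and 5.77, the second from 1 UMI in general capillary cells with an interval of 3.27 to 11.09), Itga3 (log2 2.25, 2.15 to 2.36, and 2.65, 2.37 to 2.94) and Lamc1 (log2 1.79 and 1.53). They were lower in Itga6 (log2 −5.37, −5.72 to −5.03, and −7.13, −8.59 to −5.99), Itga5 (−5.30 and −5.51), Lama5 (−3.92 and −3.02), Itga1 (−3.22 and −2.68) and Lama4 (−3.18 and −2.38). Of the laminin receptor subunits, Itga3 was thus higher in aerocytes and Itga6 in general capillary cells, while Itgb1 was within 1.11-fold (log2 −0.08 and 0.15). Lamc3 (log2 1.07) and Itga9 (−4.04) were apart in the donor library only, where the recipient sums of both were below 50 UMIs, and Itgav was apart in the recipient library alone (log2 1.08, against −0.19 in the donor), a difference that was not tested. With a gate margin of 1 marker in place of 2, Lamc3 came to log2 0.69 and Itgav to 0.92.

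**Figure D4:**
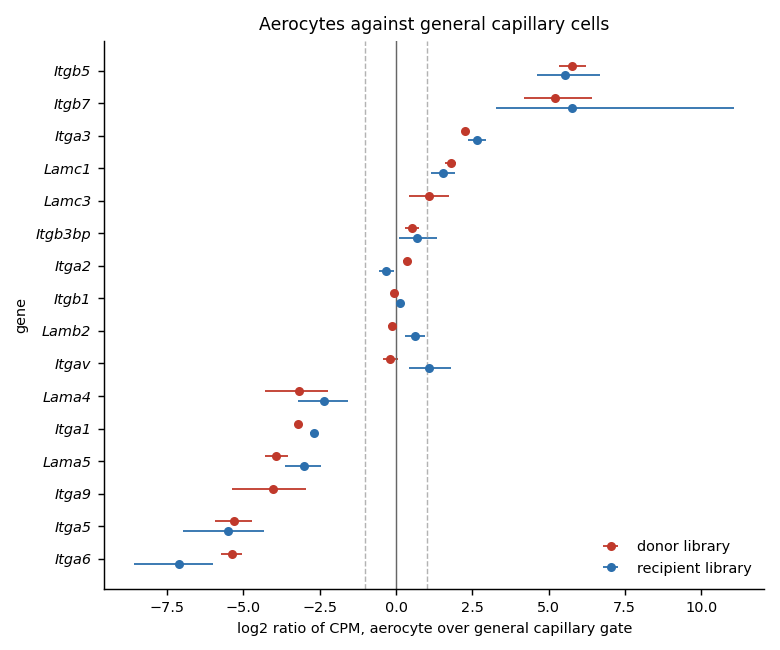
Log2 ratio of CPM in aerocytes over general capillary cells (horizontal axis) for genes with at least 50 UMIs in both sums together, in the donor (red) and recipient (blue) library, with 95% intervals for counting error and dashed lines at 2-fold. Itgb5, Itgb7, Itga3 and Lamc1 lie to the right and Itga6, Itga5, Lama5, Itga1 and Lama4 to the left in both libraries.

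Genes of the adhesion machinery were listed in 5 groups with 91 genes. Between aerocytes and general capillary cells of the donor library, 26 of 29 integrin adaptors and kinases were tested, with 5 higher and 5 lower, and in the recipient library 23, with 5 higher and 3 lower. The median log2 ratio of that list was −0.10 and 0.025. Tln2, a talin that activates integrins, was at 69.1 CPM in donor and 81.5 in recipient aerocytes against 1.40 and 1.21 in general capillary cells, and of the tensins Tns3 was higher (140.5 and 135.6 CPM against 16.1 and 16.9) and Tns1 lower (11.9 and 14.4 against 137.9 and 149.7) in aerocytes. Among integrin-binding matrix proteins, 12 and 14 of 20 were tested, with 2 and 3 higher and 5 and 4 lower. Edil3, an RGD-bearing ligand of Itgav-type integrins, was the leading one, at 207.2 and 235.2 CPM in aerocytes against 10.0 and 6.04. Of the surface ligands 7 of 10 were tested in each library, with 1 higher and 4 lower, and Vcam1, a ligand of Itga4 integrins, was lower in recipient aerocytes (11.1 against 120.7 CPM). Of 15 basement membrane partners 10 and 9 were tested, with 2 and 3 higher and 3 and 4 lower, Ntn1 (3.53 against 87.0 CPM in the donor library) among the latter. Of 17 other laminin receptors and integrin partners 12 were tested in each, with 2 and 4 higher and 2 lower in both.

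Alveolar type 1 cells were compared with aerocytes because the pair faces the same basement membrane. In the recipient library 17 of the 39 genes were tested and 13 were apart, against 35.4% of all genes (16.2% higher and 19.2% lower in alveolar type 1 cells). In the donor library 17 were tested and 10 were apart, against 34.7% (15.1% higher and 19.6% lower), and 9 were apart the same way in both. The median log2 ratio over the 17 was 0.94 in the recipient library, beside −0.086 over all genes. Itgb6 (log2 10.3, 8.44 to 13.35, in the recipient library), Lamb3 (9.38, 7.52 to 12.4) and Lama3 (8.65, 7.29 to 10.5) were higher in alveolar type 1 cells, each with 2 to 4 UMIs in aerocytes. Lama5 (log2 3.22) and Itgav (1.80) were higher too, with 3.21 and 1.67 in the donor library. Itga2 (log2 −7.96 and, in the donor library, −4.76, each from 1 UMI), Itgb5 (−1.50 and −1.55) and Itgb7 (−4.80 and −3.01) were lower. For Itgb7, recipient alveolar type 1 cells held no UMI, and setting them to the floor of 3 gave 27.9-fold. Its donor ratio was −1.33 with cells weighted equally. Itgb3 (log2 6.76, from 2 aerocyte UMIs) and Itga9 (5.10) were higher in the recipient library, and in the donor library, where they had too few UMIs to be counted, their ratios were 6.25 and 7.12. Itga6 passed in the donor library (log2 1.52, −0.15 to 2.80, from 5 alveolar type 1 UMIs, and 0.98 with doublets kept) and had too few UMIs in the recipient library. Itgb3bp (log2 −1.25 in the recipient and 0.23 in the donor library) and Itga1 (−5.50 and −0.30) had enough UMIs in both libraries and were 2-fold apart in the recipient one. The difference between the libraries was not tested. In the recipient library Itga3 (log2 0.09, −0.01 to 0.20) and Itgb1 (−0.04, −0.14 to 0.06) were within 1.07-fold of the aerocyte level. Itga3 and Itgb1 were detected together in 85.6% (79.7 to 90.4) of recipient alveolar type 1 cells and 85.2% (82.1 to 87.9) of recipient aerocytes. Median depths of these gates were 14304 and 7467 UMIs. In the donor library the shares were 34.5% (22.2 to 48.6) and 87.9% (86.1 to 89.5), at median depths of 2317 and 8785 UMIs. Detection at equal depth was not compared for this pair. Lamc3 had no UMI in donor alveolar type 1 cells, where 3 UMIs would be 9.55 CPM against 5.49 in aerocytes, and no fold is given.

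The recipient alveolar type 1 gate rested on shared barcodes, since 136 of its 181 barcodes also occurred, as small copies, in the donor library. In the 45 cells whose barcode was not shared, Itgb6 was at 416.0 CPM (331 to 516), Lama3 at 345.9 (269 to 438), Lamb3 at 225.6 (165 to 302) and Itga3 at 375.9 (296 to 471). In the 136 shared ones these were 570.0, 357.7, 300.0 and 442.1. The shared Itgb6 level lies above the unshared interval, and the levels of Lama3, Lamb3 and Itga3 lie within theirs. Itga9 was at 25.1 CPM (8.14 to 58.5) and Itgav at 35.1 (14.1 to 72.3) without shared barcodes against 96.7 (84.5 to 110) and 103.1 (90.5 to 117) with them, and these intervals do not overlap. The median depth was 4176 UMIs in unshared and 16984 in shared cells.

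Among the listed partners, alveolar type 1 cells were led by the type IV collagens Col4a3 (910.8 against 1.99 CPM in recipient aerocytes) and Col4a4 (1383 against 2.88), which form the network of thin epithelial basement membranes, and by the syndecan Sdc1 (360.0 against 0.665). Of all genes tested in the recipient library, 35.4% were apart (16.2% higher and 19.2% lower in alveolar type 1 cells). Of 15 basement membrane partners 12 were tested, with 7 higher and 2 lower and a median log2 ratio of 3.47. Of 29 adaptors 26 were tested, with 5 higher and 8 lower, and Rasip1, a vascular Rap effector, was at 2.76 against 339.8 CPM. Surface ligands (7 tested, 4 higher and 3 lower) included Icam2, an endothelial ligand of leukocyte integrins, at 8.67 against 3520 CPM. Matrix ligands were 4 higher and 5 lower of 13, and other laminin receptors 6 higher and 3 lower of 14. These counts are from the recipient library, where the median log2 ratio of matrix ligands was −0.61. In the donor library it was 1.08, with 7 higher and 4 lower of 12. Of all genes tested there, 34.7% were apart (15.1% higher and 19.6% lower). Basement membrane partners were 7 higher and 2 lower of 12 in that library, and adaptors 2 and 5 of 23. Surface ligands were 3 and 2 of 8, and other laminin receptors 5 and 3 of 13.

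Among the genes tested between venous and general capillary cells of the recipient library, Itgb4 had the largest ratio. Genes below the UMI minimum, Itga9 and Lama1 among them, were not compared. Of 11 genes tested 3 were apart, where 12% of all genes were (3.83% higher and 8.18% lower). Itgb4 (chromosome 11, 115974709 to 116008412) was higher (log2 5.84, 4.22 to 8.16, from 59 and 3 UMIs), and Itga1 (log2 −1.40, −1.61 to −1.20) and Itga2 (−1.38, −2.01 to −0.79) were lower. All genes had a median log2 ratio of −0.14 in this comparison, and 31.9% of the called genes were higher. With median-of-ratios scaling that share was 44.9%. In that setting 4 integrin and laminin genes were apart, a count for which the share of all genes called is not given here. The donor library had 49 venous and 19 arterial cells, under the minimum of 50. With the margin of 1 marker, 89 donor venous cells gave 5 of 16 genes apart from general capillary cells (14.1% of all genes, 4.66% higher and 9.44% lower), with Itgb4 at 88.9 CPM against 2.78, Itga9 at log2 2.41 and Lama4 at 2.12, but Itga1 at −0.95. Under that margin 68 donor arterial cells gave 4 of 15 apart (12.6% of all genes, 4.57% higher and 8.03% lower), among them Itgb4 at 38.1 CPM (log2 3.78, 2.84 to 4.65). Of the surface ligands, 7 of 10 were tested in the recipient library and 4 were higher in venous cells, led by Vcam1 at 1997 against 120.7 CPM.

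Lymphatic against venous cells gave 6 of 9 genes apart, where 25.1% of all genes were (10.8% higher and 14.3% lower in lymphatic cells). Itga9 (log2 3.57, 2.84 to 4.39), Lama4 (3.35, 2.76 to 3.99) and Lamc1 (1.73, 0.91 to 2.59) were higher and Itgb4 (−3.30), Itga1 (−2.51) and Itga6 (−1.58) lower in lymphatic cells. Emilin1, a ligand of Itga9 integrins, was higher in the same cells (213.0 against 19.3 CPM), while Vcam1 was lower (5.26 against 1997). Of 15 basement membrane partners 9 were tested, with 5 higher and none lower, among them Nid2, which links laminin to collagen, at 157.8 against 3.52 CPM.

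Pericytes and alveolar fibroblasts of the recipient library were set apart by their alpha subunits. Of 18 genes tested 7 were apart, where 27.7% of all genes were (13.2% higher and 14.4% lower in pericytes). Pericytes were higher in Itga1 (log2 6.32, 6.03 to 6.64), Itga6 (6.07, 4.69 to 7.96), Itga4 (4.77, 3.15 to 7.09) and Lamb2 (1.89, 1.69 to 2.09), and lower in Itga8 (−5.11, −5.47 to −4.77), Itga9 (−4.59) and Lama5 (−3.01). Itgb1 was 1.997-fold higher and so fell just short, whereas the laminin chains Lama4, Lamc1 and Lama2 differed by 1.32-fold or less. Of 20 matrix ligands 17 were tested, with 5 higher and 10 lower and a median log2 ratio of −1.62 beside 0.12 over all genes. Osteopontin (Spp1, 23430 against 54.6 CPM), periostin (Postn, 2891 against 7.49) and vitronectin (Vtn, 752.7 against 2.66), ligands of Itgav-type integrins, led in pericytes, and fibronectin (Fn1, 7.21 against 956.3) led in alveolar fibroblasts. Of 15 basement membrane partners 8 of 11 tested were higher in pericytes and 2 lower.

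Adventitial fibroblasts differed from alveolar fibroblasts in 8 of 16 genes tested, where 20.1% of all genes were apart (7.95% higher and 12.1% lower). Lamc3 (log2 2.13, 1.74 to 2.53), Lama2 (1.58, 1.38 to 1.77) and Lamb2 (1.34) were higher, as were Itgb8 (35.8 against 8.94 CPM) and Itga2 (17.5 against 6.29), and Lama5 (−4.16, from 2 UMIs), Itga8 (−3.68) and Itga9 (−1.65) were lower. Of the 126 adventitial barcodes 94 were shared with the donor library, and the 32 unshared cells held 337.8 CPM of Lama2 (260 to 431), 105.6 of Lamc3 (64.5 to 163), 63.3 of Itgb8 (32.7 to 111) and 89.7 of Itga8 (52.3 to 144). These cells kept the same side of the alveolar fibroblast levels for those 4 genes. Their levels of Lamb2, Itga2, Lama5 and Itga9 are not given here. Basement membrane partners were 8 higher and 1 lower of 13 tested, led by Col15a1 (223.4 against 0.725 CPM). Npnt (70.8 against 2391) and Tnc (2.19 against 90.2), ligands of Itga8 integrins, were lower.

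Myofibroblasts were lower than alveolar fibroblasts in Itga8 and several laminin chains. Of 14 genes tested 7 were apart, where 24.0% of all genes were (7.3% higher and 16.7% lower). Lamb2 (log2 1.36, 1.07 to 1.65) was higher, and Itga8 (−6.03, −7.04 to −5.19), Lamb1 (−5.67, −7.95 to −4.12), Lamc3 (−4.19, from 1 UMI), Lamc1 (−1.81), Lama2 (−1.49) and Lama5 (−1.11) were lower. The other 7 were within 2-fold, among them Itga9 (log2 0.82) and Lama4 (0.64). Over all genes the median log2 ratio was −0.16, and Lama5 came to −0.96 with median-of-ratios scaling. This gate also held smooth muscle check markers, each of the 3 at 367 to 1480 CPM. Of the gate's own 3 check markers a single one was at 2570 CPM and the lowest at 6.04, and the part of smooth muscle cells in these ratios was not tested. Tgfbi, a matrix ligand of integrins, was at 547.6 against 2.42 CPM, and Fn1 at 4.84 against 956.3. Of 20 matrix ligands 2 of 16 tested were higher and 8 lower.

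Donor and recipient cells of the same gate had similar levels of most of these genes. In general capillary cells 14 of 39 genes were tested and 2 were apart, where 4.97% of all genes were (2.95% higher and 2.02% lower in the donor library), and the median log2 ratio was 0.25 beside 0.0086 over all genes. Itga9 was higher in the donor library, at 8.64 CPM (99 UMIs in 80 of 1998 cells) against 1.21 (2 UMIs in 2 of 286 cells), a log2 ratio of 2.84 (0.95 to 5.91). With a gate margin of 1 marker its ratio was 1.42. Lama4 was lower in the donor library, at 6.81 against 24.1 CPM (log2 −1.83, −2.40 to −1.24), from UMIs in 63 and 31 cells. Marker sums of other cell types in these gates did not all differ in the same direction. The 6 gate markers of alveolar fibroblasts summed to 2.01 CPM in donor and 73.6 in recipient general capillary cells, and those of adventitial fibroblasts to 2.79 and 27.8. The 3 check markers of adventitial fibroblasts summed to 4.80 and 22.3 CPM, and those of alveolar fibroblasts to 73.5 and 82.1, of which a single marker gave 66.4 and 68.8. Lymphatic gate markers summed to 351 and 558 CPM and lymphatic check markers to 63.3 and 50.7. Their part in the Itga9 and Lama4 differences was not tested. Short of 2-fold, Itga1 was 1.41-fold higher (log2 0.50, 0.42 to 0.57) and Itga2 1.82-fold lower (−0.86, −1.09 to −0.63) in the donor library, with Itga2 found in 583 of 1998 and 129 of 286 cells. Of the listed ligands, Spp1 (11.2 against 73.0 CPM) and Vcam1 (21.2 against 120.7) were lower in donor cells. Spp1 was the leading pericyte ligand, and it was also lower in donor aerocytes (7.59 against 55.8 CPM). In general capillary cells the 6 pericyte gate markers summed to 12.2 CPM in the donor and 57.9 in the recipient library, and the 3 pericyte check markers to 25.5 and 16.3. In aerocytes these sums were 11.7 and 40.1, and 29.8 and 25. Their part in the ligand differences was not tested.

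In aerocytes 13 genes were tested and 1 was apart, where 1.37% of all genes were (0.595% higher and 0.771% lower). It was Itga6, at 5.56 CPM (62 of 1477 cells) in the donor and 1.33 (6 of 601 cells) in the recipient library (log2 2.07, 0.88 to 3.56), both of which came to 0 after the free RNA subtraction. General capillary check markers summed to 744 and 614 CPM in the same aerocytes, and their part in the result was not tested. The other 12 tested genes differed by 1.57-fold or less, the widest being Lama5 (log2 −0.65). With at least 20 UMIs 4 of 19 genes were apart (3.63% of all genes), the added ones being Itga8, Lama4 and Lamb1, all lower in the donor library. The 6 alveolar fibroblast gate markers summed to 3.83 CPM in donor and 76.6 in recipient aerocytes, and their part was not tested. Median log2 ratios were −0.19 over the 13 genes and −0.016 over all.

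In alveolar type 1 cells none of 13 genes was apart, where 8.09% of all genes were (3.15% higher and 4.94% lower), and 12 of the 13 ratios were below 0. The median was −0.47 beside −0.00012 over all genes. The count moved with the cell filter and the weighting. With no cell filter 4 of 15 genes were apart (8.78% of all genes), namely Itga1, Itgb3bp, Itgb3 and Lama5, and with cells weighted equally 4 of 13 were (23.5% of all genes), among them Itgb6 at log2 −1.34 and Lama5 at −1.93. The ratios ran from −0.75 for Itgb3 (−1.91 to 0.22) to 0.01 for Itgb1, with Lamb3 at −0.65 (−1.06 to −0.26) and Itgb6 at −0.48 (−0.75 to −0.21). The donor gate was shallow, with a median of 2317 UMIs against 14304, and its general capillary check markers summed to 369 CPM against 25.2 and those of alveolar fibroblasts to 1200 against 1480; their part in these ratios was not tested. The unshared recipient cells, with 416.0 CPM of Itgb6 and 225.6 of Lamb3, had intervals that hold the donor values of 401.2 and 187.9. Donor levels of Itga3 and Itgav also lay within the unshared intervals given above. The donor level of Lama3 lay below its unshared interval and that of Itga9 above. Among the listed genes Icam2 (165.6 against 8.67 CPM) and Egfl7 (477.6 against 30.4), both endothelial, were higher in the donor gate. In pericytes none of 14 genes was apart, where 5.67% of all genes were (1.81% higher and 3.86% lower), and the ratios ran from −0.97 for Itga4 (−3.30 to 0.65) to 0.68 for Itga8 (−0.34 to 1.57). Itga1 (log2 −0.13, −0.27 to 0.01) and Lamb1 (−0.13, −0.45 to 0.18) were close to equal. Icam2 (131.2 against 26.7 CPM) and Egfl7 (262.4 against 57.0) were again higher in the donor gate, whose general capillary check markers summed to 562 CPM against 377. With the margin of 1 marker, 89 donor and 90 recipient venous cells gave none of 11 genes apart, where 2.34% of all genes were (1.28% higher and 1.06% lower), and Itga1 was at 734.6 and 420.4 CPM (log2 0.81, 0.60 to 1.01).

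**Figure D5:**
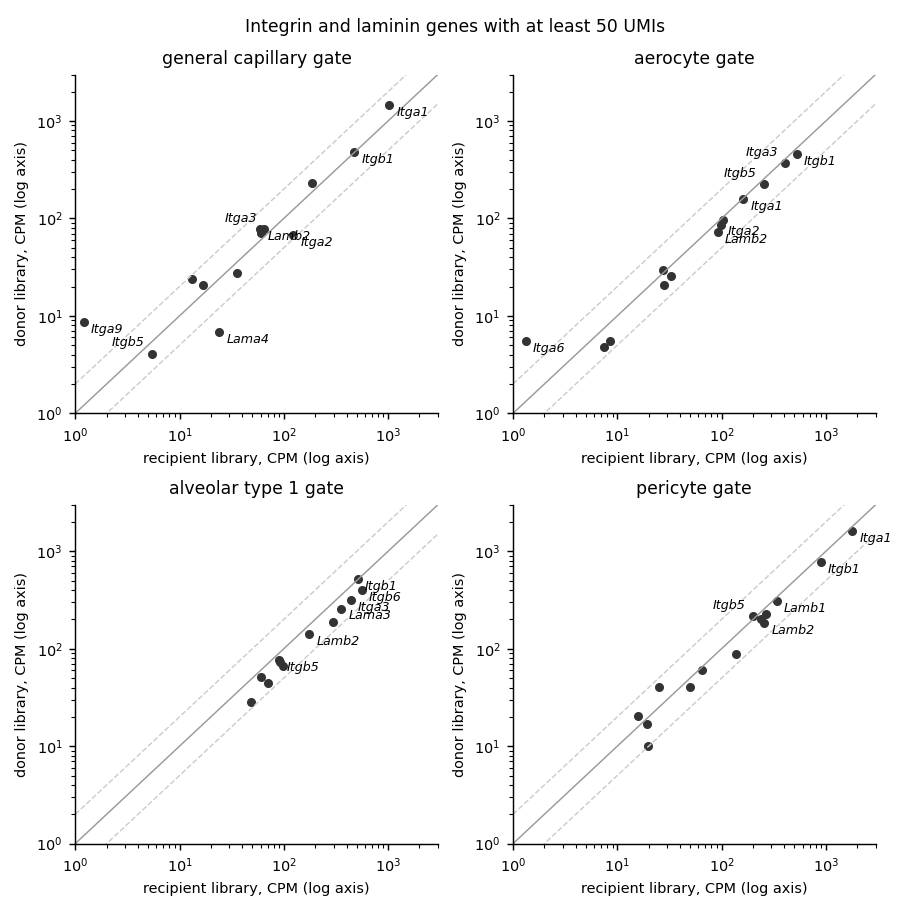
CPM in the donor library (vertical, log axis) against the recipient library (horizontal, log axis) for integrin and laminin genes with at least 50 UMIs in both sums together, in the 4 gates with at least 50 cells in each library. Points lie near the line of equality, and Itga9 and Lama4 in general capillary cells and Itga6 in aerocytes lie outside the dashed 2-fold lines.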

How the data were processed

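The deposited matrices held UMI counts per gene and cell barcode for 1 donor and 1 recipient library, made by the authors with Cell Ranger (4.0.0 per the submitters' processing notes and the file headers, 3.0.1 per the labels' protocols) against mm10. The count setting for strand is not given in the sources used here. The authors' deposited gene symbols and barcodes were used as names only, and the integrated values the protocol describes were not used here.

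From these counts, cells outside 3 scaled median absolute deviations of genes, UMIs or mitochondrial share were removed. Scrublet (scanpy 1.11.5) scores ranked barcodes, and the top 0.8% per 1000 barcodes were removed as doublets, which marked 319 donor (5.05%) and 115 recipient barcodes (3.04%), since its automatic threshold called 9 donor barcodes (0.142%). In the recipient library that threshold called 157 barcodes (4.15%), more than were removed. The UMIs used were 31623705 and 23385725. A cell entered a gate with a UMI of at least 3 of 6 markers and at least 2 more than for any other of 17 gates. UMIs were summed per gate and library and scaled to CPM, with exact Poisson intervals and exact conditional intervals for ratios (Python 3.11.15, numpy 2.4.6, scipy 1.17.1, pandas 2.3.3, matplotlib 3.10.9). A sum of 0 was set to a floor of 3 counts. Gene coordinates are those of GRCm38. The calculation was tested on simulated data.

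Members and gene lists were chosen with earlier results of these data known. All 39 genes were accounted for, those at 20 CPM or more being described with values, and up to 3 list genes each way with 50 CPM or more were named per comparison. Of the 39, 1 gene entered the counts and medians but is not reported here by name or in figures. With 1 library per group no test between groups was made. Alternatives changed the gate rule, cell filter, doublets, shared barcodes, cell weighting, free RNA, scaling and UMI minimum. The pericyte comparison between libraries and the donor comparison of alveolar type 1 cells with aerocytes, like the setting without any shared barcode, were added after gate sizes or files had been seen.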

Additional observations from a re-analysis of the deposited data

Results flagged for a closer look

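Platelet and leukocyte gates held too few cells for any comparison but carried subunits at levels above those in each of the 13 larger gates. In 11 donor platelet-gate cells, Itga2b, the alpha chain of the platelet fibrinogen receptor, was at 3724 CPM (162 UMIs), its partner Itgb3 at 735.7, Itga6 at 735.7, Itgb2 at 252.9 and Itgal at 115.0. In 8 recipient platelet-gate cells, Itga2b was at 2278 CPM (86 UMIs), Itgb5 at 662.1, Itga6 at 556.2, Itgb3 at 317.8 and Itgal at 105.9. The highest larger gate reached 7.30 CPM for Itga2b, 48.1 for Itgb3, 235.6 for Itga6, 254.1 for Itgb5, 2.63 for Itgb2 and 3.63 for Itgal.

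In 4 donor leukocyte-gate cells, Itgb2, the beta chain of leukocyte integrins, was at 268.2 CPM and Itga4 at 178.8. In 5 recipient leukocyte-gate cells, Itgb7 was at 535.2 CPM, Itgb2 at 312.2 and Itgam at 133.8 (3 UMIs). Larger gates reached 19.8 CPM for Itga4, 33.0 for Itgb7 and 0 for Itgam. These gates were read after a CD45-negative sort, and the source of the cells was not tested.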

How the results depend on the processing

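The 78 log2 ratios followed here are those called at least 2-fold apart under the main rule. Over these and the alternatives that can move a ratio, 680 values were computed, of which 651 stayed within the counting interval, 29 moved and 0 reversed, 21 of the 29 under free RNA subtraction. Ratios chosen as large and recomputed on largely the same cells had little room to reverse. Genes within 2-fold under the main rule are outside the 78. In these settings 74 of the 78 ratios stayed at least 2-fold. Below 2-fold were Lamc3 (0.69) and Itgav (0.92) with a margin of 1 marker, Itga6 in donor alveolar type 1 cells with doublets kept (0.98) and Lama5 in myofibroblasts with median-of-ratios scaling (−0.96). A UMI minimum cannot move a ratio and only sets which genes are tested.

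With at least 200 UMIs, genes apart between libraries were 0 of 11 in general capillary cells (1.83% of all genes) and 0 of 10 in aerocytes (0.233%). They were 5 of 8 for recipient aerocytes against general capillary cells (18.5%), 2 of 3 for lymphatic cells (29.3%), 4 of 10 for donor alveolar type 1 cells (32.2%), 4 of 11 for pericytes (27.0%) and 5 of 11 for adventitial fibroblasts (20.8%). With at least 20 UMIs they were 4 of 19 between libraries in aerocytes (3.63%), 2 of 15 in alveolar type 1 cells (13.8%), 10 of 15 for lymphatic cells (28.1%), 12 of 23 for pericytes (30.8%), 13 of 21 for adventitial fibroblasts (23.6%) and 11 of 20 for myofibroblasts (27.3%). Between libraries in alveolar type 1 cells, the count of 0 became 4 of 15 with no cell filter (8.78%), 4 of 13 with cells weighted equally (23.5%), 1 of 14 with a margin of 1 marker (8.95%) and 1 of 14 with shared barcodes kept (4.88%). In pericytes it became 1 of 14 with a margin of 1 marker (5.65%), with shared barcodes kept (5.64%), with cells weighted equally (6.96%) and with free RNA subtracted (6.55%). Venous against general capillary cells gave 5 of 11 with cells weighted equally (12.6%). Apart from the UMI minimum, the cause was not tested.

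Without any shared barcode the recipient alveolar type 1 and adventitial gates held 45 and 32 cells, too few for a value. Donor venous and arterial gates and smooth muscle gave no value under the main rule. No paired analysis was possible because each group had 1 library.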
